A study of Bos taurus with 12 samples.

Results

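The genes described here are a part of the translation machinery outside the ribosome: the initiation factors (symbols that begin with EIF and a digit), the elongation factors (EEF and a digit) and the cytosolic and mitochondrial aminoacyl-tRNA synthetases. They were chosen by symbol alone, without use of their signals. On the bovine array 113 of 24128 entries carried such a symbol. Of these, 6 are control probe sets of the array itself, which cover the 5′ part, the middle and the 3′ part of EEF1A1 and of EIF4E, and they are given separately. The other 107 of 24016 probe sets belong to 79 genes, which are 40 initiation factors and their regulators, 10 elongation factors and their enzymes, 16 cytosolic synthetases and 13 mitochondrial synthetases. The synthetases were divided by the ending of their symbols, and a gene whose product serves both compartments was not set apart. A further 2 probe sets share such a symbol with another gene and were not used.

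All samples came from the endometrium of cyclic Simmental heifers after estrous synchronization and were taken with a cytobrush that was stroked along the uterine wall, in the cycle before the transfer of an in vitro-produced blastocyst. The 4 groups were HR7 and LR7, sampled on day 7, and HR3 and LR3, sampled on day 3. HR heifers (high receptivity, "receptive" in the sample records) carried a detectable embryo after that transfer, and LR heifers (low receptivity, "non receptive") did not. Every group had 3 pools of RNA from 5 samples each, and each pool was measured on 1 array, so that n = 3 per group throughout. A pool hides the spread between its heifers, and the sources used here do not say which heifers went into which pool or whether the day 7 and day 3 pools of a group hold the same heifers. The study calls its design longitudinal, so the days may share heifers, and the main fit does not pair them. Signals are on the log2 scale, on which a difference of 1 is a doubling, and signals of different probe sets are not compared in level.

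Translation begins when eIF2 carries the initiator tRNA to the small ribosomal subunit, which is held by the eIF3 scaffold and recruited to the capped 5′ end of the mRNA by eIF4E, eIF4G and the helicase eIF4A. Phosphorylation of eIF2α by stress-sensitive kinases blocks its recycling by eIF2B and lowers initiation, and the same signal raises many synthetase genes through the transcription factor ATF4. The synthetases load each amino acid onto its tRNA in the cytosol or in the mitochondrion, and eEF1 and eEF2 drive elongation. In the days after estrus the corpus luteum forms, progesterone rises and the uterine glands turn to secretion, which the early embryo depends on.

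The pools had the marker signals of a uterine brush sample. Of 7 measured markers of uterine epithelium, 6 lay above the array median in at least 1 group, and their summed linear signal was 24800 to 30200 in HR7, 21200 to 24300 in LR7, 26200 to 28900 in HR3 and 25800 to 26600 in LR3. Markers of smooth muscle (5), endothelium (4) and red blood cells (3) did not lie above the array median in any group. The summed signal of 3 measured neutrophil markers moved with the day, with 6630 to 12700 in HR7 and 3520 to 5810 in LR7, against 308 to 445 in HR3 and 446 to 945 in LR3. That of 6 T and NK cell markers was 519 to 862 in HR7 and 534 to 1030 in LR7, against 1000 to 1180 in HR3 and 1010 to 1530 in LR3, and none of the measured markers was listed at 0. The summed signal of 4 measured macrophage markers also differed, at 1650 to 2900 in HR7 and 1390 to 1860 in LR7, against 880 to 975 in HR3 and 634 to 1190 in LR3. The single macrophage markers did not all rise. Over both groups 3 of the 4 were higher at day 7 and 2 passed, and in LR 2 were higher and 2 lower. The summed signal of 4 measured squamous epithelium markers was 2630 to 4170 in HR7 and thus set that group apart, with 486 to 629 in LR7, 238 to 384 in HR3 and 201 to 409 in LR3, and 1 of the 4 passed for HR7 against LR7. The 8 stroma markers ran from 3230 to 14000 in HR7 and 3610 to 9260 in LR7, against 9920 to 13900 in HR3 and 4630 to 10900 in LR3, with a median log2 difference between the days of -0.58 over both groups and -1.0 in HR, and 2 of them fell. B and plasma cell markers (4 measured) were at 326 to 406 in HR7 and 310 to 722 in LR7, against 415 to 472 in HR3 and 479 to 2410 in LR3. The part of these cells in the differences below, between the days or between HR and LR, was not tested, and in pooled tissue fewer cells of a type and less RNA per cell cannot be told apart. The spiked dap transcript, a control for target preparation, had a 5′ minus 3′ signal of -2.30 to -1.77 in HR7 and -1.88 to -1.47 in LR7, against -2.74, -1.39 and -1.32 in HR3 and -3.13 to -2.66 in LR3. It was lowest in all LR3 arrays and in HR3 replicate 1. A second spike, thr, was also low on these 4 arrays, and on LR7 replicate 3, which lay below 3 of them. It was at -2.86, -3.06 and -2.89 in HR7 and -2.37, -2.98 and -3.85 in LR7. In HR3 it was at -3.56, -2.56 and -1.97, and in LR3 at -3.52, -3.54 and -4.35.

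The translation factors and synthetases were a steady set of transcripts. Over the 12 arrays the median standard deviation of the signal was 0.168 for the 79 genes, at 1 probe set per gene, against 0.251 for all 9155 genes with a symbol, and within the groups it was 0.146 against 0.196. Low spread was not particular to them. Over the 12 arrays it was 0.128 for 68 cytosolic and 0.158 for 67 mitochondrial ribosomal protein genes, and 0.183 for 23 translation factors outside the set. A probe set was tested when this standard deviation was at least 0.2 and when its signal lay above the array median on every array of at least 1 group, which stands in for present calls. The signal condition was met by 88 of the 107 probe sets (82.2%, against 51.1% of all probe sets), and 79 of them lay above the median on all 12 arrays. The spread limit was met by only 32 of these 88 (36.4%, against 59.8% of all probe sets that met the signal condition). Of the 107, 56 missed the spread limit alone, 16 the signal condition alone and 3 both, so that 32 probe sets, which represent 23 genes by their brightest probe set, were tested. Of the 32, 8 met the signal condition in some groups only (LARS2, AARS2, EIF2AK3, EIF4EBP1, EIF2B3 and the dimmer probe sets of EIF4H, CARS2 and EIF1), and such probe sets could enter the test through the groups where they were higher. For that reason the counts between the days are also given for all 107 and for the 88.

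Between the days, some of the translation genes differed, and the typical difference over all 107 probe sets was small. The comparison asks how transcript abundance in the endometrium differed on day 7 and day 3. Over both receptivity groups, 8 of the 32 tested probe sets were higher at day 7 and 10 lower at an adjusted p under 0.05 (limma, Benjamini-Hochberg over all 7339 probe sets tested), where 31.1% of all tested probe sets were higher and 34.8% lower, 65.9% in all. Without any filter, 7 of the 107 were higher and 12 lower (17.8%, against 26.5% of all 24016 probe sets). With the signal condition alone, 9 of the 88 were higher and 16 lower (28.4%, against 46.4%). The share that passed was thus below that of all probe sets under each of the 3 filters. The median log2 difference over all 107 was -0.02, against -0.04 for all probe sets, and the median absolute difference was 0.12 against 0.25. Day 7 and day 3 pools did not overlap for 2 probe sets higher at day 7 and 5 lower, where 7.24% of all probe sets were without overlap above and 7.08% below. The sign of the members' median depended on the scaling, with -0.06 after quantile normalization and 0.01 after each array was centred on its median.

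By their brightest probe set, all synthetase genes that passed fell at day 7. Of 16 cytosolic synthetase genes 5 were tested and 3 fell (CARS1, LARS1 and GARS1). Of 13 mitochondrial ones 4 were tested and all 4 fell (LARS2, VARS2, CARS2 and AARS2), where 34.8% of all tested probe sets fell. LARS2 and AARS2 met the signal condition only through day 3 groups, where they were higher, so that the filter favoured a fall for them. The same holds where the signal condition is used alone. With the signal condition alone, 4 of 16 cytosolic genes fell and 1 rose, and 5 of 12 mitochondrial genes fell and 1 rose, where 24.9% of all probe sets fell and 21.5% rose. Without any filter 2 of 16 cytosolic (12.5%) and 4 of 13 mitochondrial genes (30.8%) fell and none rose. In that fit 15.8% of all genes with a symbol fell and 15.3% rose, at 1 probe set per gene. The cytosolic share that fell was thus no higher than that of all genes. With the dap difference as a covariate AARS2 no longer passed (-0.31, adjusted p 0.104). Of the 13 mitochondrial genes 11 had a difference below 0, with a median of -0.10, and this was 11 after quantile normalization and 9 after centring. Of the 16 cytosolic genes 8 lay below 0, with a median of -0.02 that became 0.02 after centring.

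CARS1, which loads cysteine onto its tRNA in the cytosol, had the largest difference of the 18 probe sets that passed. It was at 7.04, 7.08 and 6.99 in HR7 and 7.66, 6.71 and 7.33 in LR7, against 8.02, 8.42 and 8.36 in HR3 and 7.90, 8.05 and 7.91 in LR3. Every day 7 pool was below every day 3 pool, and the 3 HR7 pools lay within 0.09 of each other while LR7 spread over 0.95. The log2 difference was -0.98 ± 0.146 (SE), a ratio of 0.51, with an adjusted p of 0.000208. A second, dim CARS1 probe set was at 1.16 to 2.77 in HR7 and 2.46 to 4.21 in LR7, against 2.95 to 3.21 in HR3 and 1.20, 0.00 and 0.00 in LR3, where it is listed at the floor. It was not tested, and it did not follow the brighter probe set in LR.

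CARS2, the mitochondrial enzyme for the same amino acid, was at 9.02, 8.69 and 8.64 in HR7 and 8.70, 8.82 and 8.85 in LR7, against 9.27, 9.14 and 9.16 in HR3 and 9.19, 9.22 and 9.22 in LR3. Its day 7 and day 3 pools did not overlap, and the LR3 pools lay within 0.03 of each other. The difference was -0.41 ± 0.092 (adjusted p 0.00239), and a second CARS2 probe set fell by 0.46 on the log2 scale (adjusted p 0.0167). Both cysteine enzymes were therefore lower at day 7.

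LARS2 and VARS2 load leucine and valine onto mitochondrial tRNAs. LARS2 was at 6.74, 6.66 and 6.85 in HR7 and 6.78, 6.93 and 6.45 in LR7, against 7.17, 7.19 and 7.13 in HR3 and 7.61, 7.62 and 7.15 in LR3. VARS2 was at 7.43, 7.20 and 6.99 in HR7 and 7.26, 7.43 and 7.07 in LR7, against 7.52, 7.61 and 7.63 in HR3 and 7.85, 7.99 and 7.64 in LR3. For both genes all 6 day 7 pools were below all 6 day 3 pools, and the 2 highest pools of each were LR3 pools. The differences were -0.58 ± 0.115 for LARS2 (adjusted p 0.0013) and -0.48 ± 0.109 for VARS2 (adjusted p 0.00277). AARS2, for alanine, fell by 0.31 on the log2 scale (adjusted p 0.0334) with overlapping pools. NARS2, for asparagine, was too steady for the spread limit, with a standard deviation of 0.186. Without that limit it fell by 0.28 on the log2 scale (adjusted p 0.0165), and FARS2, for phenylalanine, was the 1 mitochondrial gene that rose (0.24, adjusted p 0.0408).

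LARS1, the cytosolic leucine enzyme, was at 9.38, 9.29 and 9.27 in HR7 and 9.51, 9.48 and 9.30 in LR7, against 9.55, 9.69 and 9.79 in HR3 and 9.71, 10.01 and 9.46 in LR3. All pools but LR3 replicate 3 followed the order of the days, and the difference was -0.33 ± 0.106 (adjusted p 0.0169). GARS1, for glycine, was at 10.09, 10.42 and 10.19 in HR7 and 10.48, 10.44 and 10.19 in LR7, against 10.49, 10.64 and 10.74 in HR3 and 10.56, 10.89 and 10.28 in LR3. Its pools overlapped in LR, and the difference of -0.30 ± 0.120 passed narrowly (adjusted p 0.0442). It missed the threshold under 12 of the alternatives tried, including leaving out each of 8 pools in turn. MARS1, for methionine, was not tested for its low spread and fell without that limit (-0.24, adjusted p 0.0378). SARS1, for serine, differed by 0.26 ± 0.106 and missed the threshold (adjusted p 0.0507), but passed in the fit without the spread limit (adjusted p 0.0451).

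The 4 probe sets of WARS1, which loads tryptophan and is induced by interferon in many cell types, did not have equal differences. They ran from 0.05 to 0.45, and the 1 that passed had 8.49, 8.16 and 8.05 in HR7 and 8.71, 8.0 and 8.60 in LR7, against 7.66, 8.19 and 8.10 in HR3 and 7.33, 7.79 and 8.26 in LR3 (0.45, adjusted p 0.0455). The brightest WARS1 probe set differed by 0.12 and did not pass. The 7 cytosolic synthetases AARS1, HARS1, IARS1, NARS1, QARS1, TARS1 and YARS1 had differences between -0.06 and 0.07. EPRS1 (0.18), KARS1 (-0.19) and RARS1 (-0.12) did not pass either.

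**Figure D1:**
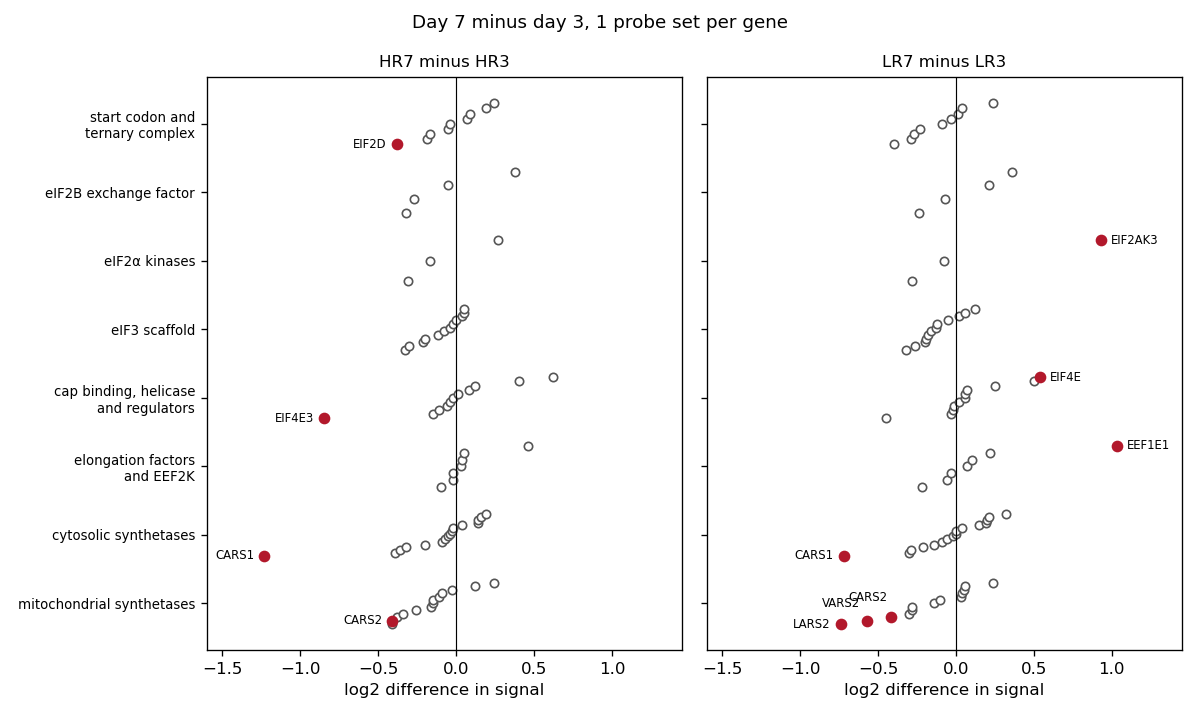
Log2 difference in signal, HR7 minus HR3 on the left and LR7 minus LR3 on the right, with 1 point per gene (its brightest probe set) in rows by role. Red points passed at an adjusted p under 0.05. Most genes lie close to 0, and the synthetases that passed lie to the left. EEF1A2, which is near the floor, EIF6 and the methyltransferases EEF1AKMT3 and EEF2KMT are not drawn.

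Among the cap-binding factors, EIF4E rose and EIF4E3 fell. EIF4E binds the mRNA cap and is the limiting factor of cap-dependent initiation, while EIF4E3 is a less studied relative of it. EIF4E was at 10.10, 10.12 and 9.86 in HR7 and 10.32, 10.03 and 10.02 in LR7, against 9.47, 9.64 and 9.77 in HR3 and 9.39, 9.82 and 9.55 in LR3. All day 7 pools were above all day 3 pools, and the difference was 0.47 ± 0.110, a ratio of 1.38 (adjusted p 0.00324). EIF4E3 was at 7.42, 7.69 and 7.97 in HR7 and 8.01, 8.22 and 8.61 in LR7, against 8.71, 8.80 and 8.12 in HR3 and 8.58, 8.47 and 9.15 in LR3. Its days did not overlap in HR but did in LR, and the difference was -0.65 ± 0.172 (adjusted p 0.00615).

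EIF4EBP1, which sequesters eIF4E until mTOR phosphorylates it, also rose. It was at 7.11, 7.26 and 7.38 in HR7 and 7.03, 6.94 and 7.68 in LR7, against 6.55, 7.08 and 6.27 in HR3 and 6.24, 6.75 and 7.16 in LR3 (0.56 ± 0.191, adjusted p 0.0222). HR7 lay above HR3, while LR7 and LR3 overlapped, and with the dap covariate it did not pass (0.52, adjusted p 0.0997). EIF4EBP1 met the signal condition only through day 7 groups, where it was higher, so that the filter favoured a rise for it. It did not pass without any filter. The other members of the group were steady at their brightest probe set. EIF4A1, EIF4A2 and EIF4A3 (helicases), EIF4B (helicase cofactor), EIF4E2, EIF4G1 (scaffold) and EIF4H had differences between -0.09 and 0.07. EIF4G3, a second scaffold, differed by 0.12 at its brightest probe set and by 0.56 ± 0.125 at the other (adjusted p 0.00252).

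The genes around eIF2 moved in different directions. EIF2AK3 (PERK), the eIF2α kinase that senses unfolded protein in the endoplasmic reticulum, was at 7.45, 6.99 and 7.29 in HR7 and 7.27, 7.33 and 7.29 in LR7, against 6.64, 7.14 and 7.15 in HR3 and 5.82, 6.54 and 6.74 in LR3. The LR3 pools were low, with HR3 replicate 1 among them, and the other day 3 pools reached into the day 7 range. The difference was 0.60 ± 0.162 (adjusted p 0.00695). EIF2AK3 met the signal condition in both day 7 groups and not in LR3, where it was lowest, and it also passed without any filter. EIF2AK2 (PKR), the kinase activated by double-stranded RNA, differed by -0.30 and EIF2AK1, the heme-regulated kinase, by -0.12, and neither passed.

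Of the 4 eIF2B subunits measured, which recycle eIF2, EIF2B3 rose (0.37 ± 0.111, adjusted p 0.0117), but did not pass with the dap covariate (0.28, adjusted p 0.106). EIF2B3 met the signal condition only through day 7 groups, where it was higher, so that the filter favoured a rise for it. It also passed without any filter. EIF2B2 was below the spread limit, and its day 7 and day 3 pools did not overlap. It was at 8.70, 8.62 and 8.69 in HR7 and 8.75, 8.86 and 8.74 in LR7, against 9.02, 8.95 and 9.01 in HR3 and 9.02, 9.03 and 9.01 in LR3. The 3 LR3 pools were within 0.02 of each other, and the difference of -0.28 ± 0.057 passed without the spread limit (adjusted p 0.00222). EIF2B1 (0.08) and EIF2B4 (-0.17) did not pass.

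EIF2D, which can deliver tRNA to the ribosome without eIF2, was at 7.74, 7.51 and 7.71 in HR7 and 7.64, 7.76 and 7.82 in LR7, against 7.91, 8.08 and 8.12 in HR3 and 7.91, 8.19 and 7.80 in LR3. Only LR7 replicate 3 and LR3 replicate 3 crossed, by 0.02, and the difference was -0.30 ± 0.098 (adjusted p 0.0169). The subunits EIF2S1 (0.22) and EIF2S3 (-0.22) and the start codon factors EIF1 (-0.10), EIF1AX (0.05) and EIF5 (-0.07) did not pass.

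The 12 measured eIF3 genes had small differences, between -0.24 and 0.08. Only EIF3H and EIF3M were variable enough to be tested, and neither passed. With the signal condition alone, EIF3I (-0.24, adjusted p 0.0272), EIF3L (-0.22, adjusted p 0.0173) and EIF3D (-0.23, adjusted p 0.0462) fell, 3 of 12, where 24.9% of all probe sets fell, and without any filter 1 of 12 fell. The difference was below 0 for 10 of 12 genes, with a median of -0.09, and for 9 after centring of the arrays, with a median of -0.05.

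The elongation factors were steady except for EEF1E1, with a median standard deviation over the arrays of 0.129 for 8 genes. EEF1A1, which delivers loaded tRNA to the ribosome, was at 13.72, 13.69 and 13.70 in HR7 and 13.69, 13.76 and 13.67 in LR7, against 13.59, 13.71 and 13.70 in HR3 and 13.55, 13.67 and 13.59 in LR3. All 12 values lay within 0.21 of each other. A second, less bright EEF1A1 probe set spread over 0.63. The day differences of the 2 probe sets were 0.04 and 0.07, and neither passed without any filter. EEF2, which moves the ribosome along the mRNA, was at 13.04 to 13.33 in HR7 and 13.06 to 13.25 in LR7, against 13.12 to 13.21 in HR3 and 13.13 to 13.23 in LR3, with a difference of -0.02. EEF1B2 (-0.01), EEF1G (0.02) and EEF1D (-0.16), the exchange factors of eEF1A, did not pass either. EEF1A2, the form of muscle and neurons, was near the floor with values of 0.00 to 3.51, and no fold is given for it. EEF2K, the kinase that inhibits eEF2, differed by 0.13 and 0.02 at its 2 probe sets, and neither passed.

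EEF1E1, also known as AIMP3, is named with the elongation factors but is a scaffold of the cytosolic multi-synthetase complex. It was at 8.90, 9.06 and 8.99 in HR7 and 9.11, 9.66 and 9.49 in LR7, against 8.23, 8.60 and 8.73 in HR3 and 8.09, 8.60 and 8.49 in LR3. All day 7 pools were above all day 3 pools, and the LR7 pools were the highest. The difference was 0.74 ± 0.134, a ratio of 1.68 (adjusted p 0.000657). The other 2 scaffolds of the complex, AIMP1 (0.05) and AIMP2 (0.09), which are outside the set, did not meet the spread limit.

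**Figure D2:**
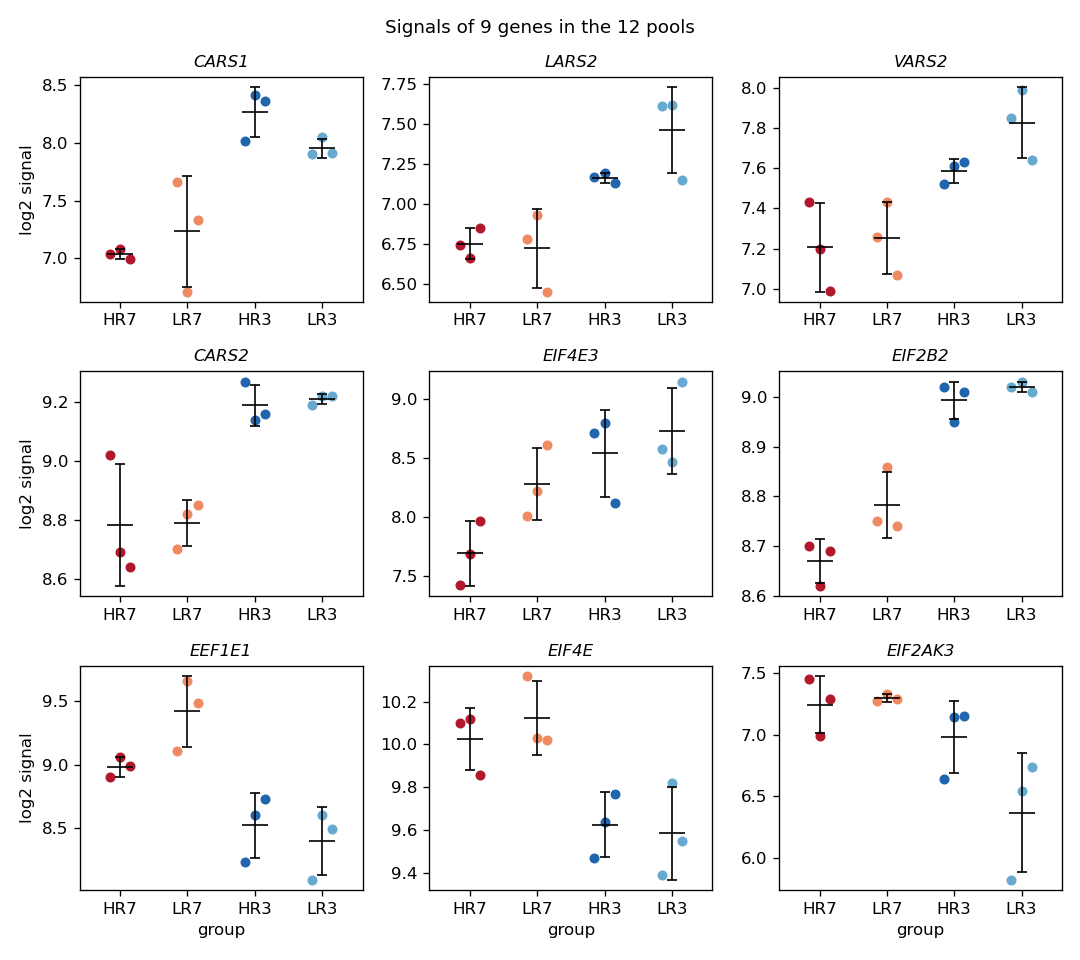
Log2 signal of 9 genes (brightest probe set) in the 3 pools of HR7, LR7, HR3 and LR3. Points are pools, and the bars give the mean and 1 SD of each group. In the first 6 panels day 7 lies lower and in the last 3 it lies higher, with overlap between the days for EIF4E3 and EIF2AK3, and the scales differ between panels.

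In several genes the probe sets gave different answers. Like WARS1 above, EIF4H, EIF3B and EIF4G3 each had a dimmer probe set that passed beside a brighter one that did not. The brightest EIF4H probe set (EIF4H assists the eIF4A helicase) was at 10.26 to 10.35 in HR7 and 10.21 to 10.50 in LR7, against 10.19 to 10.51 in HR3 and 10.16 to 10.57 in LR3, a difference of -0.03. A dimmer EIF4H probe set was at 6.86, 6.46 and 6.73 in HR7 and 7.08, 6.84 and 6.73 in LR7, against 5.75, 7.28 and 6.80 in HR3 and 5.27, 5.76 and 5.62 in LR3. It passed with 0.70 ± 0.216 (adjusted p 0.0135). This probe set met the signal condition only in LR7, so that the filter favoured a rise for it. A dim EIF3B probe set was at 6.25, 5.87 and 6.15 in HR7 and 6.36, 6.44 and 5.98 in LR7, against 4.96, 5.81 and 6.15 in HR3 and 4.49, 5.34 and 5.19 in LR3 (0.85, adjusted p 0.0183 without any filter), while the bright one differed by -0.01. The second EIF4G3 probe set was at 7.86, 7.92 and 7.76 in HR7 and 8.25, 8.12 and 7.99 in LR7, against 7.38, 7.93 and 7.59 in HR3 and 6.91, 7.48 and 7.27 in LR3. In the dimmer probe sets of these 3 genes (EIF4H, EIF3B and EIF4G3) the LR3 pools were low, HR3 replicate 1 was the lowest of the HR3 pools, and HR3 replicate 2 lay within or above the range of day 7 (EIF4G3, EIF4H) or 0.06 below it (EIF3B). The dap spike was low on the same 4 arrays, and the thr spike was low on them and on LR7 replicate 3. The probe sets of CARS1 (-0.98 and 0.95), EIF2AK2 (-0.30 and 0.16) and EIF3A (-0.51 and 0.08) differed in sign, and of these only the brighter CARS1 probe set passed.

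The array's own control probe sets show the signal along 2 member transcripts. At the 5′ part of EIF4E the HR7 pools had 6.95, 7.28 and 7.12 and the LR7 pools 7.46, 7.04 and 7.06, against 5.98, 6.65 and 6.80 in HR3 and 5.71, 6.47 and 5.93 in LR3, a mean difference of 0.90 between the days. The 3′ part averaged 10.13 ± 0.16 (SD) in HR7 and 10.31 ± 0.17 in LR7, against 9.83 ± 0.04 in HR3 and 9.89 ± 0.12 in LR3, a mean difference of 0.36. EIF4E was thus higher at day 7 at both ends, with the larger difference at the 5′ part, and the middle differed by 0.85. The 5′ part of EEF1A1 was at 13.24 to 13.61 in HR7 and 13.49 to 13.59 in LR7, against 12.90, 13.51 and 13.44 in HR3 and 12.68, 13.12 and 12.69 in LR3, while its middle and 3′ part differed by 0.03 and 0.02 between the days. The 4 lowest values at the 5′ part of EEF1A1 were those of the 4 arrays with a low dap spike. These probe sets are controls of the array and were not tested.

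**Figure D3:**
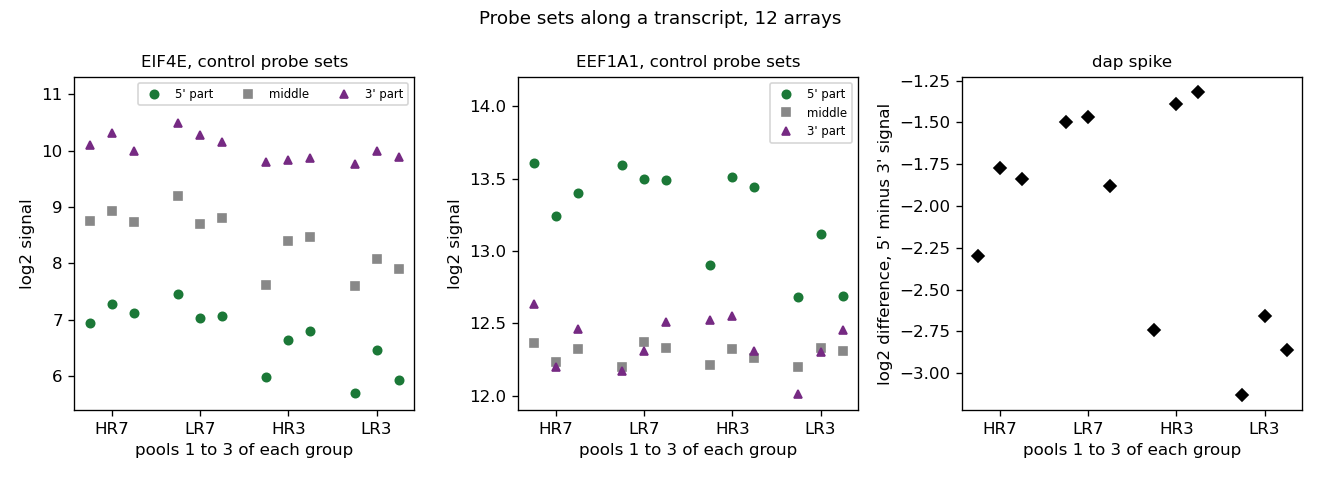
Log2 signal of the array's control probe sets for the 5′ part, the middle and the 3′ part of EIF4E and EEF1A1, and the 5′ minus 3′ signal of the spiked dap transcript, on the 12 arrays (HR7, LR7, HR3 and LR3, replicates 1 to 3 from left to right). The 5′ parts are lowest in LR3 and in HR3 replicate 1, where the dap difference is also lowest.

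With the dap difference as a covariate, 11 of the 32 tested probe sets passed between the days over both groups, against 18 without it. The 10 that passed both with and without it were those of CARS1 (-1.08 with the covariate, adjusted p 0.00135), LARS2 (-0.61, 0.00818), EEF1E1 (0.56, 0.0109), VARS2 (-0.51, 0.0136), CARS2, LARS1, GARS1, EIF2D, EIF4E (0.36, 0.0417) and the second probe set of EIF4G3, and a second RARS1 probe set passed only with it. The 8 that no longer passed were those of EIF2AK3 (0.42, adjusted p 0.0871), EIF4E3 (-0.56, adjusted p 0.0541), EIF4EBP1, EIF2B3, AARS2, the dimmer EIF4H probe set (0.28, adjusted p 0.22), the dimmer CARS2 probe set (-0.33, adjusted p 0.15) and the WARS1 probe set (0.32, adjusted p 0.25). No sign changed among the 18. In HR alone, EEF1E1 (0.51, adjusted p 0.0304) and EIF4E (0.43, adjusted p 0.0381) rose with this covariate, CARS1, EIF4E3 and CARS2 fell, and EIF2D did not pass (-0.37, adjusted p 0.0543). In LR alone none passed with it. There the differences of LARS2 (-0.81, adjusted p 0.0991), CARS1 (-0.97, adjusted p 0.105) and VARS2 (-0.64, adjusted p 0.143) were no smaller than without it, while those of the dimmer EIF4H probe set (0.38, against 1.33 without it), EIF2AK3 (0.52, against 0.93), the second EIF4G3 probe set (0.50, against 0.90), EEF1E1 (0.60, against 1.03) and EIF4E (0.28, against 0.54) were smaller. The dap difference and the day are hard to separate in LR, since the 3 LR3 arrays had the lower dap values of all 6 LR arrays.

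The day differences were also estimated within each receptivity group. In HR none of the 32 rose and 4 fell, where 20.7% of all tested probe sets rose and 20.8% fell (41.5% in all), and without any filter none of 107 rose and 3 fell (2.80%, against 11.2%), and with the signal condition alone none of 88 rose and 6 fell (6.82%, against 26.4%). The 4 were CARS1 (-1.23 ± 0.206, adjusted p 0.00122), EIF4E3 (-0.85 ± 0.243, adjusted p 0.0169), CARS2 (-0.41 ± 0.130, adjusted p 0.0266) and EIF2D (-0.38 ± 0.139, adjusted p 0.0437). The count was 2 when either of HR7 replicates 2 and 3 or any of the 3 HR3 pools was left out. In LR 5 of the 32 rose and 4 fell, where 22.7% of all tested probe sets rose and 22% fell (44.7% in all), and without any filter 7 of 107 rose and 3 fell (9.35%, against 11.4%), and with the signal condition alone 5 of 88 rose and 5 fell (11.4%, against 28%). The unfiltered LR count of 10 was 4 without LR7 replicate 1 or LR3 replicate 1, 5 without LR7 replicate 2 or LR3 replicate 2, 1 with only the LR arrays in the fit, and 0 with the dap covariate or with pool number as a block within LR. With that block 7 of the 32 tested passed, and EIF4E and CARS2 did not. In HR the days did not overlap for 12 of 107 probe sets with day 7 above and for 26 with day 7 below, where 16.1% and 18.6% of all probe sets did, and in LR for 9 above and 8 below, where 14.6% and 15.7% did. Those that rose in LR were the dimmer EIF4H probe set (1.33), EEF1E1 (1.03 ± 0.189, adjusted p 0.00208), EIF2AK3 (0.93 ± 0.228, adjusted p 0.0084), the second EIF4G3 probe set (0.90) and EIF4E (0.54 ± 0.155, adjusted p 0.017). Those that fell were LARS2 (-0.74 ± 0.163, adjusted p 0.00501), CARS1 (-0.72 ± 0.206, adjusted p 0.0164), VARS2 (-0.57 ± 0.154, adjusted p 0.0126) and CARS2 (-0.42 ± 0.130, adjusted p 0.0226).

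Without the dap covariate EEF1E1 and EIF4E passed in LR and not in HR, where their differences were 0.46 (adjusted p 0.0653) and 0.40 (adjusted p 0.0557), and with it they passed in HR and not in LR. The test of the difference between HR and LR in the day effect passed for none of the members. It had an unadjusted p under 0.05 for 2 of 32, where this was so for 3.9% of all tested probe sets. These were the dimmer EIF4H probe set (-1.26, unadjusted limma p 0.0129, adjusted p 1.0) and the second EIF4G3 probe set (-0.69, unadjusted limma p 0.0174, adjusted p 1.0). For EEF1E1 this difference was -0.56 ± 0.267 (adjusted p 1.0).

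The comparison of HR with LR asks whether the translation genes were expressed differently in the endometrium of heifers that became pregnant. None of the 32 passed on either day or over the 2 days together (limma), where 5 of all 7339 tested probe sets passed at day 7 (0.0681%), none on day 3 and 3 with the days combined (0.0409%). At day 7, 2 of 32 had an unadjusted p under 0.05, where 4.51% of all tested probe sets did, at day 3 it was 6 of 32, where 7.06% did, and over both days 1 of 32, where 7.04% did. Without HR3 replicate 1 the dimmer EIF4H probe set passed at day 3. In the fit without the spread limit, the 95% interval of the difference lay within ±0.5 for 70 of 88 probe sets at day 7 and for 63 of 88 at day 3, and within ±1 for 87 and 85. For all probe sets that met the signal condition, 68% at day 7 and 61% at day 3 were within ±0.5.

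At day 7 the 2 genes with an unadjusted p under 0.05 were EIF4E3 and EEF1E1, both lower in HR7. The pools of each gene, given above, did not overlap between HR7 and LR7. The summed marker signals of squamous epithelium, neutrophils and uterine epithelium were higher in HR7 than in LR7, and their part here was not tested. The differences were -0.59 ± 0.243 for EIF4E3 (unadjusted limma p 0.0327, adjusted p 0.997) and -0.44 ± 0.189 for EEF1E1 (unadjusted limma p 0.0392, adjusted p 0.997). Over all 107 probe sets, HR7 lay without overlap below LR7 in 12 and above in 2, where 3.56% of all probe sets lay below and 4.59% above. EIF3B (-0.19), EIF6 (-0.16), EIF2B2 (-0.11), EIF4A1 (-0.12), AARS1 (-0.14), EIF3CL (-0.11) and both EIF4G3 probe sets (-0.21 and -0.27) were among the 12, so that most of these differences were small. EEF1A2 and a dim EIF3A probe set were the others.

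At day 3 the lowest p among the tested members was that of the dimmer EIF4H probe set (1.06 ± 0.306, unadjusted limma p 0.00462, adjusted p 0.668), followed by EIF2AK3 (0.61 ± 0.228, unadjusted limma p 0.0203, adjusted p 0.668). EEF2K was at 8.08, 8.07 and 7.73 in HR3, against 7.00, 7.28 and 7.87 in LR3, at its dimmer probe set (0.58 ± 0.234, unadjusted limma p 0.0294, adjusted p 0.668), with LR3 replicate 3 inside the HR3 range. EIF2A, an alternative carrier of initiator tRNA, was at 8.80, 8.35 and 8.04 in HR3, against 9.16, 8.61 and 8.84 in LR3 (-0.47 ± 0.207, unadjusted limma p 0.0411, adjusted p 0.682). HR3 and LR3 overlapped for all 4. HR3 lay without overlap above LR3 in 5 of 107 and below in 6, where 5.63% and 4.61% of all probe sets did.

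**Figure D4:**
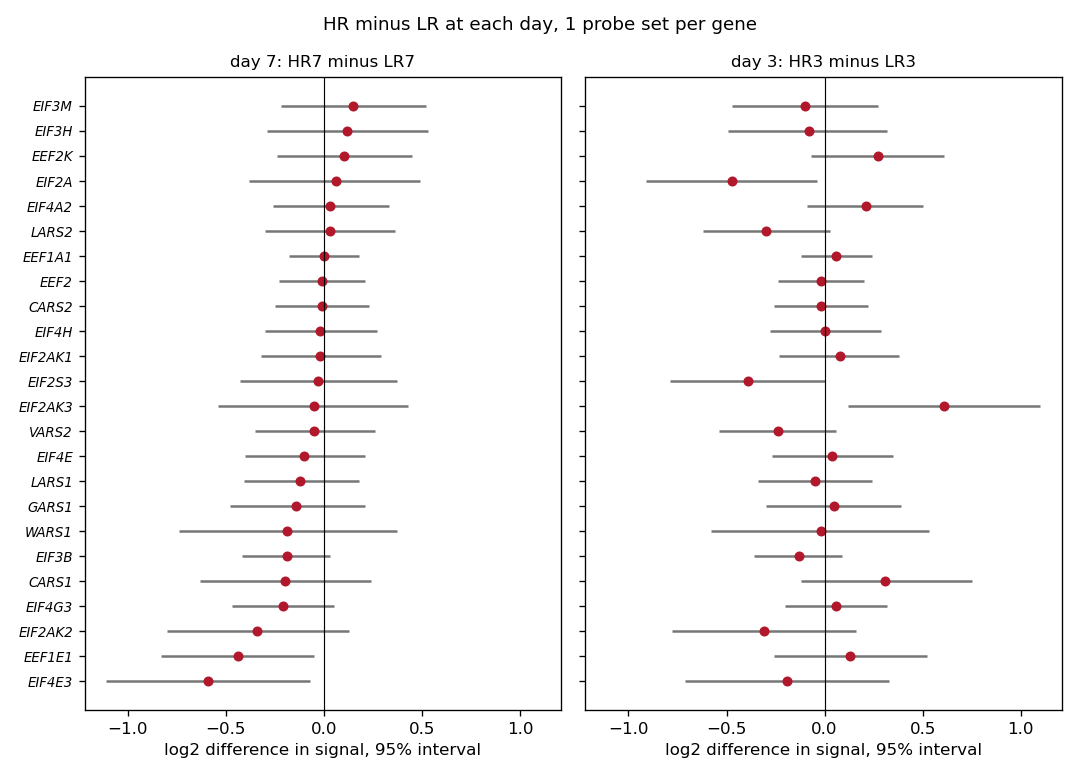
Log2 difference in signal of HR minus LR with its 95% interval for 24 named genes (brightest probe set), at day 7 on the left and day 3 on the right, from the fit without the spread limit. The intervals of EIF4E3 and EEF1E1 at day 7 and of EIF2AK3 and EIF2A at day 3 leave out 0, and none of the 24 genes passed after adjustment.

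Other parts of the translation system were set beside these genes. Of 68 cytosolic ribosomal protein genes 3 were variable enough to be tested, and over both groups 1 rose and 1 fell at day 7, where 65.9% of all tested probe sets passed. Of 67 mitochondrial ribosomal protein genes 16 were tested, and 5 rose and 5 fell, a share near that of all probe sets. Of 23 other translation factors 7 were tested, and 4 rose and 3 fell. PDCD4, which inhibits the eIF4A helicase, rose (0.75, adjusted p 0.00124), as did ETF1, the termination factor eRF1 (0.44, adjusted p 0.0129), and MTIF2 and MTRF1L, initiation and release factors of the mitochondrion (0.33, adjusted p 0.0104, and 0.42, adjusted p 0.00135). GSPT2, a release factor GTPase, fell (-0.53, adjusted p 0.00234), as did PAIP2, an inhibitor of poly(A)-binding protein (-0.30, adjusted p 0.0153).

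Of 23 genes of the integrated stress response and mTOR signalling 17 were tested, and 8 rose and 5 fell at day 7, where 65.9% of all tested probe sets passed. The ATF4 transcript, at 10.70 in HR7 and 10.64 in LR7, against 10.71 in HR3 and 10.59 in LR3, differed by 0.02, and the ATF4 protein was not measured. Known target genes of ATF4 moved in both directions. The serine synthesis enzymes PHGDH (3.44, adjusted p 2.34e-06) and PSAT1 (1.54, adjusted p 7.76e-05) rose, while PSPH, the third enzyme of that pathway, was not tested after the filters and did not pass without them over both groups (0.46, adjusted p 0.148; 1.23 in HR and -0.32 in LR). Among the regulators of mTORC1 in the list, DDIT4, an inhibitor (1.21, adjusted p 8.16e-06), and RHEB, an activator (0.91, adjusted p 1.96e-05), were also higher. VLDLR (-1.54, adjusted p 0.000324), ATF3 (-1.30, adjusted p 0.014), the folate enzyme MTHFD2 (-0.89, adjusted p 0.000621) and the amino acid transporter SLC7A5 (-0.66, adjusted p 0.00257) fell. PHGDH averaged 11.09 in HR7 and 11.53 in LR7, against 7.76 in HR3 and 7.99 in LR3, a larger difference than that of any translation factor or synthetase that passed.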

How the data were processed

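RNA from 12 pools was hybridised to 12 GeneChip Bovine Genome Arrays. The authors scanned them in GCOS 1.1.1 with global scaling and estimated signals with PLIER in Affymetrix Expression Console, and the deposited table holds these as log2 signals, from 0 to 14.07, which were used as deposited. Array medians ran from 6.63 to 6.77. The number of arrays limits the precision, and p-values measure the spread between pools. Probe sets were named through the platform annotation, with older symbols updated: 13292 of 24016 had 1 symbol, 86 several and 10638 none. A gene is represented by its probe set with the highest mean signal.

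The translation genes, their division by role and the lists beside them were chosen with earlier results of these data known. Genes described in full are those of a rule: up to 8 in each direction that passed between the days without overlap, the 3 with the lowest p in each direction for HR against LR at each day and for the interaction, the core elongation factors, the eIF2α kinases, and members named in the study's tables. Other members are given where they passed or belong to the account of a group, and were chosen after their values were seen.

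Differences were estimated in limma 3.58.1 (R 4.3.3) with one mean per group over all 12 arrays and moderated standard errors. The Benjamini-Hochberg adjustment ran over all probe sets tested in a comparison, with a threshold of 0.05 on the adjusted p. The spread limit of 0.2 is the study's, and the signal condition replaces its present calls, which were not used here. The fit was checked on simulated data. Tables and figures were made with Python 3.11.15, pandas 2.3.3 and numpy 2.4.6. Alternatives were other filters, quantile normalization, centring, 16 added to the linear signal, the dap covariate, no moderation, only the compared groups, the mean over a gene's probe sets, pool number as a block, and leaving out each pool. The signal condition without the spread limit and the block within the compared groups were added after seeing the data.

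Pools are numbered 1 to 3 in every group. Deviations from the group mean correlated between pools of the same number at 0.198, 0.211 and 0.463 for LR7 with LR3 and at 0.136, 0.147 and 0.445 for HR7 with LR7. The main fit has no block, and the block is an alternative. For HR7 with HR3 they were 0.118, 0.00266 and -0.0605, and for HR3 with LR3 -0.0822, -0.0302 and -0.47. The labels do not say what a number shares. A heifer was either HR or LR, so HR and LR pools of the same number cannot share heifers. Pools of different numbers were not set beside these values, so whether a number marks a pairing is not known.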

Additional observations from a re-analysis of the deposited data

How the results depend on the processing

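The count of translation genes and synthetases that passed between the days over both groups (18) lay between 14 and 19 when each pool was left out and was 11 with the dap covariate. In LR (9) it lay between 7 and 13 without 1 pool, and was 0 with the dap covariate, under which LARS2 (-0.81), CARS1 (-0.97) and VARS2 (-0.64) had differences no smaller than without it. In HR (4) it was 1 with the spread limit alone, 7 after centring of the arrays, 9 with only the compared groups in the fit and between 2 and 6 without 1 pool. With pool number as a replicate block the counts were 16 over both groups, 9 in LR and 4 in HR. With the block within the compared groups they were 7 in LR and 2 in HR, and 0 for HR against LR at day 7. After centring, 3 of the 7 in HR rose and 4 fell, against 0 and 4. For HR against LR at day 3 the count lay between 0 and 1 without 1 pool, and at day 7, over both days and for the interaction it was 0 under every alternative run. Among the named genes no difference that had passed changed sign. Calls in 1 group were the less stable ones: CARS2 lost its call in HR under 7 alternatives and in LR under 6, EIF4E in LR under 6, EIF4E3 in HR under 5 and CARS1 in LR under 4, all without change of sign. Over both groups CARS1, LARS2, VARS2, CARS2, EEF1E1, EIF4E and LARS1 passed under every alternative taken alone. With the dap covariate and no filter together, 1 of the 107 probe sets rose and 6 fell, so that EEF1E1 and EIF4E did not both pass. With 3 pools per group, intervals for HR against LR are wide, and for dim probe sets near the floor no fold was given.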
